A study of Saccharomyces cerevisiae and Saccharomyces paradoxus with 16 samples.

Results

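The loss of Rrp6 was examined in N17, the *S.paradoxus* strain of the study and the only one outside *S.cerevisiae*. All 2661 cryptic unstable transcripts (CUTs) in the N17 annotation were taken, of 9377 CUTs listed for 4 strains (28.4%). The other strains, used for comparison, were S288c, Sigma1278b and JAY291 of *S.cerevisiae*, each with 2 WT and 2 *rrp6*Δ libraries. In N17, the genotypes were as follows. The *rrp6*Δ strain carried HO::lox-Kan-lox together with rrp6::NatMX, and the WT strain carried HO::lox-Kan-lox alone, so both genotypes share the marker at HO. Both are MATα haploids, and whether the deletion strain is a single clone was not stated. Cells were grown in YPD at 30 °C and harvested at an OD of 0.6 to 0.69, and strand-specific RNA-seq libraries of poly(A) RNA were made from 2 cultures of each genotype.

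Rrp6 is a catalytic subunit of the nuclear exosome, the complex that trims and degrades RNA from its 3′ end. CUTs are capped RNA polymerase II transcripts whose termination by the Nrd1-Nab3-Sen1 pathway is coupled to tailing by the TRAMP complex, which hands them to the exosome. They are scarce in WT cells for that reason and accumulate when Rrp6 is missing. In *S.cerevisiae*, where this was worked out, many CUTs start at the nucleosome free regions of genes, either back to back with the mRNA or antisense to it.

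Each CUT is listed with a start, a stop, a strand and the mean coverage per nucleotide, scaled by the authors to the mapped reads of each library. The coverage is 1 authors' average over the 2 libraries of a genotype, so no value has a replicate error. No test between *rrp6*Δ and WT was possible, and everything that follows is a description. Counting error is also unknown, because the depth behind a coverage value is not part of the annotation. The CUTs were called by a hidden Markov model from the *rrp6*Δ over WT signal, with elevated defined as about 2-fold or more, so higher coverage in *rrp6*Δ was a condition of being listed and is not a finding. The ratio used here is (*rrp6*Δ coverage + 1)/(WT coverage + 1). The targeted gene could not be checked, since only CUTs are listed, and no N17 gene annotation was used, so CUTs are named by their identifiers and listed positions. The study's methods place N17 reads on the N17 assembly of the Sanger Saccharomyces sequencing project, while the sample labels name sacCer3. The listed stops ran past the ends of the S288c chromosomes of R64 on 3 of 15 labels (V, VI and XI), so the positions are not those of that reference.

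The median N17 CUT had a ratio of 3.52, with a middle 50% of 2.57 to 5.35. Coverage had a median of 6.61 in *rrp6*Δ and 0.745 in WT. A ratio of at least 2 was found for 2369 CUTs (89%), at least 8 for 327 (12.3%) and at least 32 for 39 (1.47%). These shares depend on how the list was made, and they serve as the level against which groups of CUTs are read below. At the low end, 292 CUTs (11.0%) had a ratio under 2, 72 were under 1.5 and 2 were under 1.

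**Figure D1:**
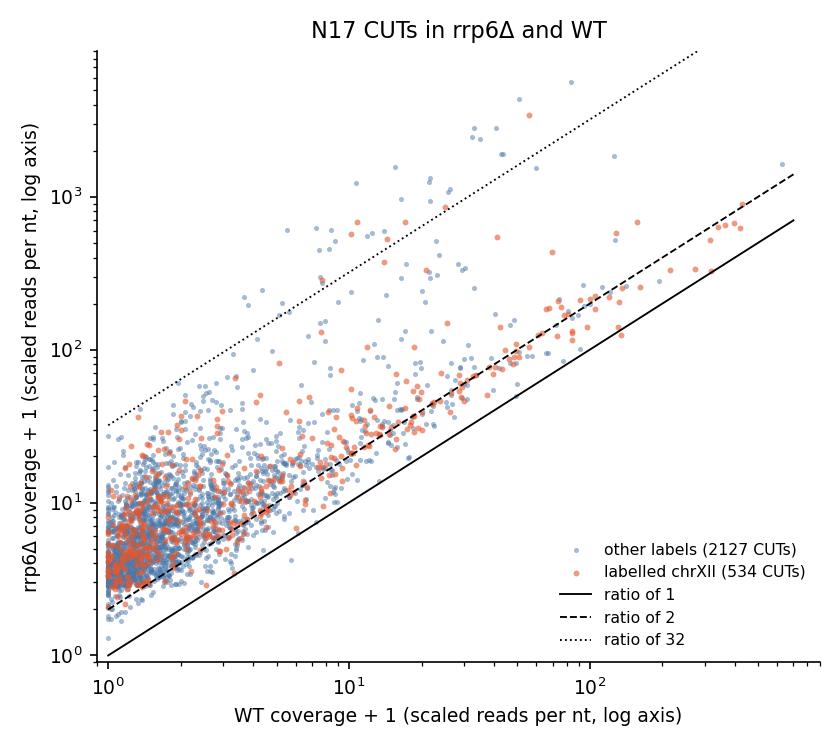
Coverage plus 1 of each N17 CUT in *rrp6*Δ (vertical) and in WT (horizontal), in reads per nucleotide scaled to the mapped reads, on log axes; each point is 1 CUT and the lines mark ratios of 1, 2 and 32. Above a WT coverage of 20 most points lie along the line for a ratio of 2, and a separate group of CUTs lies near the line for 32, while CUTs labelled chrXII are frequent on the lower line.

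At the upper end of the N17 list, the 39 CUTs with a ratio of at least 32 had a median coverage of 685 in *rrp6*Δ and 13.0 in WT, and 29 of them exceeded 500 in *rrp6*Δ. None had a WT coverage of 2 or less, which the pseudocount helps to set, since adding 1 lowers the ratio most where WT coverage is near 0. With a pseudocount of 0.1, chosen after seeing the data, the 39 largest ratios held 14 CUTs listed at 0 in WT, and 15 of the 39 were the same CUTs. The 39 CUTs found with a pseudocount of 1 were of ordinary length, with a median of 603 nt, and stood on 13 of the 15 chromosome labels. Weighted by length, they carried 35.5% of the *rrp6*Δ signal over all N17 CUTs and 2.77% of the WT signal. They were chosen for a high ratio, so their larger coverage and share of signal in *rrp6*Δ than in WT are built into the choice. The smallest ratio among them was 33.1 (CUT9185 on chromosome XV), and the largest below the threshold was 31.5 (CUT9189 on chromosome X).

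The largest ratio belonged to CUT9267 on the minus strand of chromosome XV (121322 to 121675, 354 nt), with a coverage of 1227 in *rrp6*Δ and 9.69 in WT, a ratio of 115. CUT9251 on the plus strand of XIV (693970 to 694804) had 601 in *rrp6*Δ and 4.50 in WT, a ratio of 109. CUT9271 on the minus strand of XV (397390 to 397959) had 1555 in *rrp6*Δ and 14.6 in WT, a log2 ratio of 6.64. These 3 CUTs were above every other N17 CUT in ratio, and the next in order, CUT9281, was at 85.4.

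CUT9281 on the plus strand of VII (590851 to 591408) reached a coverage of 4327 in *rrp6*Δ and 49.6 in WT. CUT9279 on the minus strand of V (31569 to 32282) had 2805 in *rrp6*Δ and 32.1 in WT, a ratio of 84.9. CUT9253 on the plus strand of VII (537222 to 538065) had 620 in *rrp6*Δ and 6.32 in WT, with nearly the same ratio of 84.9. The remaining 4 of the 10 largest ratios, CUT9277 on XV, CUT9252 and CUT9278 on II and CUT9276 on IV, lay between 68.0 and 76.2.

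Coverage in *rrp6*Δ was highest for CUT9282 on the plus strand of V (41181 to 41735), with 5599 in *rrp6*Δ and 82.3 in WT. This CUT lies less than 10 kb from CUT9279, on the other strand. CUT9280, on the minus strand under the chrXII label, followed CUT9281 with 3410 in *rrp6*Δ and 54.8 in WT. CUT9275 on I and CUT9274 on X had 1901 and 1890 in *rrp6*Δ, against 42.7 and 41.7 in WT. Of the 10 CUTs with the highest *rrp6*Δ coverage, 9 had a ratio above 40, and the exception was CUT9273 on XI, with 1846 in *rrp6*Δ and 125 in WT.

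The study removed snRNAs, snoRNAs and rRNAs from the raw calls before deposit. Whether any of these very abundant CUTs belongs to another class of stable noncoding RNA was not tested, as no N17 gene annotation was used.

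The largest ratio differed between chromosome labels, and the top CUT of each label lay in the group of at least 32 on 13 of them. It was CUT9259 on the chrXII label (63.9), CUT9269 on VIII (61.6), CUT9206 on III (59.9), CUT9240 on XI (58.4), CUT9239 on X (55.4), CUT9275 on I (43.6) and CUT9263 on XVI (43.1). Chromosomes IX and VI were the exceptions. CUT9053 on VI had a coverage of 45.9 in *rrp6*Δ and 1.71 in WT, a ratio of 17.3, and CUT8910 on IX had 25.7 in *rrp6*Δ and 0.131 in WT, a ratio of 23.6.

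With a pseudocount of 1, the upper end was wider in N17 than in the 3 *S.cerevisiae* annotations, although the centre was not. The median ratio was 3.52 in N17, against 3.34 in S288c, 3.64 in Sigma1278b and 4.34 in JAY291. A ratio of at least 32 was found for 1.47% of CUTs in N17, against 0% of 2055 in S288c, 0.0418% of 2393 in Sigma1278b (1 CUT) and 0.309% of 2268 in JAY291 (7 CUTs). At a ratio of at least 8, the share of 12.3% in N17 compared with 4.38% in S288c, 8.57% in Sigma1278b and 13.1% in JAY291, so the order at this level was not that at 32. The order at 32 also depended on the pseudocount. With 0.1 the shares were 7.18% in N17, against 2.53% in S288c, 3.97% in Sigma1278b and 7.63% in JAY291, and with 5 they were 1.09% in N17, against 0% in S288c, 0% in Sigma1278b and 0.132% in JAY291. A coverage above 500 in *rrp6*Δ was listed for 43 CUTs in N17, against 1 in S288c, 5 in Sigma1278b and 8 in JAY291. The single largest ratio of all 4 annotations was nonetheless in JAY291, at 175.

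The lower end was also wider in N17. A ratio of at least 2 was reached by 89% of N17 CUTs, against 99% in S288c, 99.3% in Sigma1278b and 99.8% in JAY291. On the log2 scale the middle 50% of ratios spanned 1.06 in N17, against 0.69 in S288c, 0.78 in Sigma1278b and 0.79 in JAY291. The difference in median log2 ratio, N17 less the other strain, was 0.07 for S288c, -0.05 for Sigma1278b and -0.30 for JAY291. The difference from Sigma1278b changed sign when the lowest 25% by *rrp6*Δ coverage were left out of each strain. Species, strain, genome assembly, library depth and the method of poly(A) selection, which for all N17 libraries was 2 rounds of Dynabeads, cannot be told apart here.

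**Figure D2:**
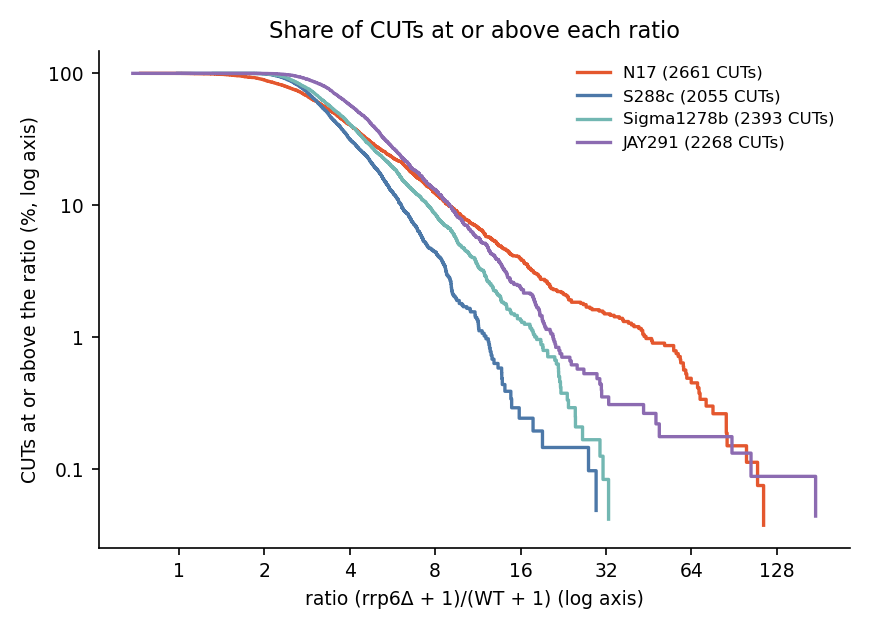
Percentage of the CUTs of each strain (vertical, log axis) at or above a given ratio of *rrp6*Δ to WT coverage (horizontal, log axis), 1 line per annotation. At a ratio of 2 the N17 line is the lowest, at 89%, it lies among the others at 4, and it is above them at 32, where it stands at 1.47%.

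CUTs of the 4x conserved list, which the study built by aligning the 4 genomes, made up 855 (32.1%) of the N17 CUTs. Their median ratio was 4.45, against 3.18 for the other 1806, with a median coverage of 7.15 against 6.35 in *rrp6*Δ and 0.517 against 0.917 in WT. The conserved CUTs were longer, with a median of 558 nt against 451 nt. The list was made from the CUT calls of these same libraries, so its values are not independent of the calling. The study also edited some regions by hand and left out CUTs that aligned poorly. Where a single strain lacked a CUT only through filtering, the study restored the filtered call and counted the CUT as conserved.

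The share of conserved CUTs was not even along the ratio. It was 11.6% of CUTs with a ratio under 2 (34 of 292), 25.5% between 2 and 4, 43.7% between 4 and 8 and 57.0% between 8 and 16 (127 of 223). Between 16 and 32 it was 49.2% (32 of 65), and at 32 or more it was 7.69% (3 of 39). The 3 conserved CUTs at the top were CUT9213 on IV (245 in *rrp6*Δ and 3.35 in WT), CUT9196 on II (195 in *rrp6*Δ and 2.81 in WT) and CUT9274 on X. With a pseudocount of 0.1, 12 of the 39 largest ratios were in the list, against 3 with a pseudocount of 1. A CUT outside the list may still have a counterpart in each strain, which was not tested.

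**Figure D3:**
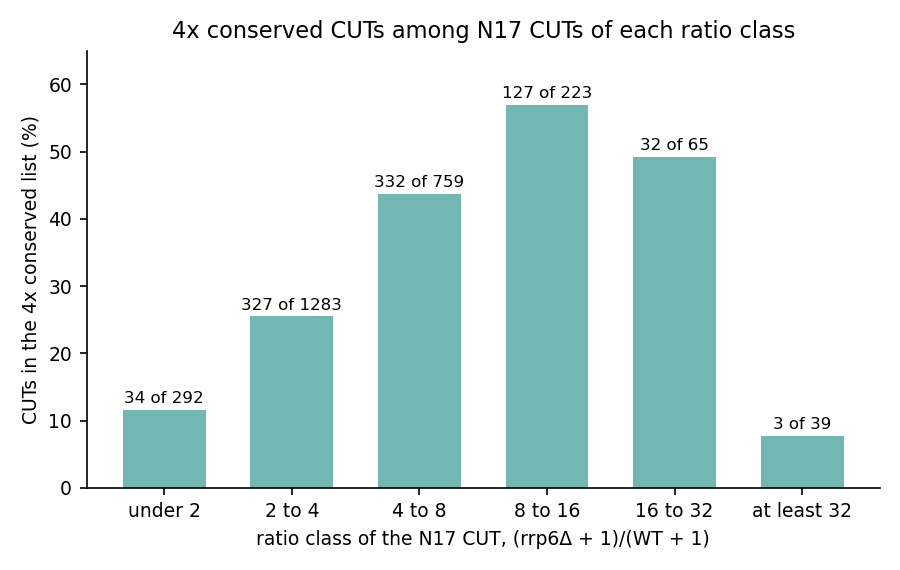
Percentage of N17 CUTs that belong to the 4x conserved list (vertical) in each class of the ratio of *rrp6*Δ to WT coverage (horizontal), with the number of conserved CUTs and of all CUTs above each bar. The share is greatest between 8 and 16, at 57.0%, and smallest at 32 or more, at 7.69%.

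Of the 39 CUTs with a ratio of at least 32, 26 were plus-strand and 13 minus-strand CUTs. Of the 65 between 16 and 32, 19 were plus-strand and 46 minus-strand. At a ratio of at least 16, which joins these classes, 45 were plus-strand and 59 minus-strand CUTs. With a pseudocount of 0.1, 20 of the 39 largest ratios belonged to plus-strand CUTs, against 26 with a pseudocount of 1. The strand split at the top thus depended on the class limit and on the pseudocount. Over all N17 CUTs the plus strand held 48.1%. The plus-strand CUTs had a median ratio of 3.42, and the minus-strand CUTs 3.60. Coverage in *rrp6*Δ was 6.09 on the plus and 7.23 on the minus strand, and coverage in WT was 0.672 on the plus and 0.839 on the minus strand. The difference in median log2 ratio, plus less minus, was -0.08, and it had the opposite sign with a pseudocount of 0.1.

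With a pseudocount of 1, the median ratio varied more across classes of WT coverage than across strands or lengths. The ratio contains the WT coverage, so these values are not independent of each other. Adding 1 also lowers the ratio most where WT coverage is near 0. The classes were not compared under another pseudocount, so their order may depend on it. CUTs with a WT coverage above 0 and up to 0.5 (914 CUTs) had a median ratio of 3.88, and those above 0.5 and up to 1 (475 CUTs) had 4.06. The median was 3.52 above 1 and up to 2, 2.85 above 2 and up to 5, 2.56 above 5 and up to 20, and 2.04 above 20. In this last class of 151 CUTs, 69 had a ratio under 2 (45.7%), yet 26 had a ratio of at least 8 (17.2%), above the 12.3% of all N17 CUTs. The CUTs most abundant in WT thus comprised some with nearly equal coverage in both genotypes and some with ratios of up to 85.4. The largest ratio of the annotation, 115, was in the class above 5 and up to 20.

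**Figure D4:**
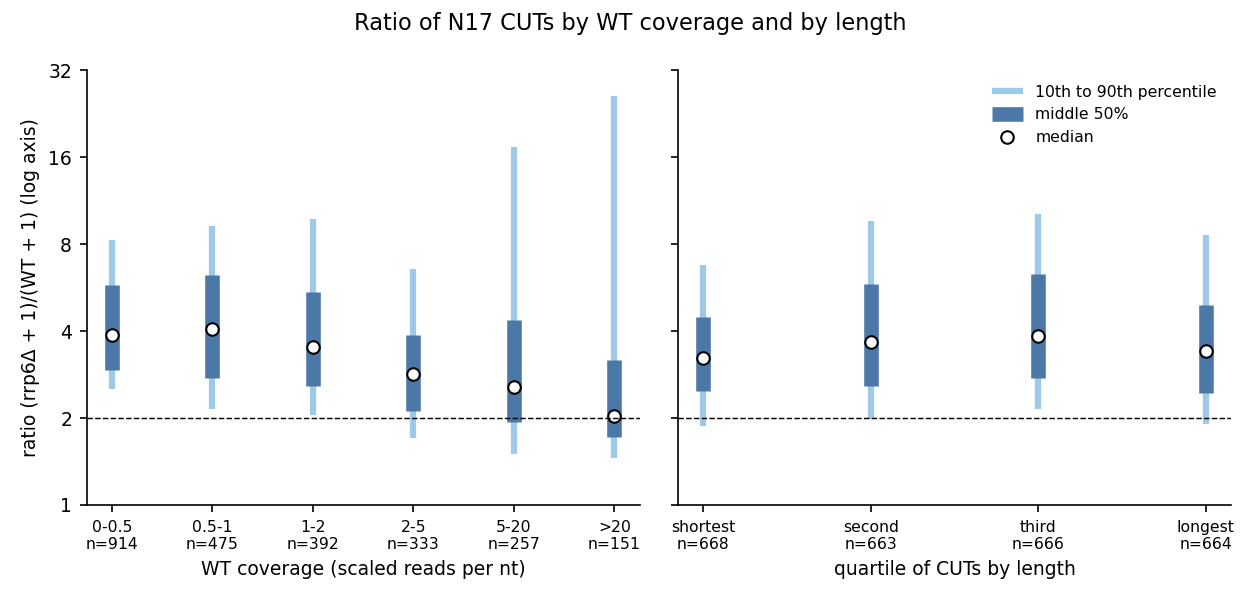
Ratio of *rrp6*Δ to WT coverage of N17 CUTs (vertical, log axis) in classes of WT coverage (left, CUTs listed at 0 in WT left out) and in quartiles by length (right); circles are medians, thick bars the middle 50% and thin bars the 10th to 90th percentile, with the number of CUTs under each. The median is 2.04 above a WT coverage of 20, where the thin bar is the longest, and lies between 3.22 and 3.85 in the quartiles by length.

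The highest WT coverage of the annotation was that of CUT9272 on the plus strand of XIV (76748 to 77429), with 1635 in *rrp6*Δ and 628 in WT, a ratio of 2.60. The next 4 were all labelled chrXII and on the minus strand. CUT9262 had 889 in *rrp6*Δ and 428 in WT, CUT9254 had 624 in *rrp6*Δ and 418 in WT, CUT9257 had 672 in *rrp6*Δ and 394 in WT, and CUT9256 had 655 in *rrp6*Δ and 365 in WT. Their ratios lay between 1.49 and 2.08, so that only the first of these 4 passed 2.

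At the other extreme, 139 CUTs were listed at 0 in WT. No fold is given for single CUTs among them, since a listed 0 has no known depth behind it. With the pseudocount they are still counted in the medians, shares and ratio classes of N17, 14 of them at 8 or more and 3 under 2. Their *rrp6*Δ coverage had a median of 2.78, against 6.61 for all N17 CUTs, and they were short, with a median of 274 nt. The 5 highest were CUT8916 on XV (242 nt) with a coverage of 26.2 in *rrp6*Δ, CUT8709 on II (132 nt) with 15.995, CUT8534 on V with 11.9, CUT8505 on XVI with 11.6 and CUT8462 on XIV with 11.0. The last 3 belong to the 4x conserved list. No CUT with a WT coverage of 0 came near the coverage of the 39 CUTs at the top of the list.

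The 5 smallest ratios were those of CUTs whose coverage in *rrp6*Δ did not exceed, or barely exceeded, that in WT. CUT7208 on VI (60823 to 61323, minus strand) had 3.21 in *rrp6*Δ and 4.74 in WT, a ratio of 0.733. CUT9166, labelled chrXII, had 124 in *rrp6*Δ and 134 in WT, a ratio of 0.931. CUT9065 on II, CUT7945 on XVI and CUT9227 under the chrXII label had ratios of 1.01, 1.02 and 1.02. The *rrp6*Δ coverage of these 3 was 48.6, 6.45 and 324, so near-equal coverage was found at low and at high levels alike. Of the 292 CUTs with a ratio under 2, 141 had a WT coverage above 5. Among all N17 CUTs, 9.66% had a WT coverage above 5 and up to 20, and 5.67% had one above 20. Among the 257 CUTs with a WT coverage above 5 and up to 20, 72 had a ratio under 2. Above 20 it was 69 of 151 (45.7%), against 11.0% of all N17 CUTs. Another count of the 292 is by row order, as 22 stood among the 95 rows after the main body of the annotation, which is sorted by *rrp6*Δ coverage. These 22 were 23.2% of the 95 rows, whereas 10.5% of the 2566 sorted rows had a ratio under 2.

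Those 95 rows differed from the rest. Their median coverage was 1.83 in *rrp6*Δ and 0.225 in WT, against 6.81 in *rrp6*Δ and 0.777 in WT for the 2566 sorted rows, and their median ratio was 2.50 against 3.56. The lowest coverage of a sorted row was 1.85 in *rrp6*Δ, and 48 of the 95 lay below it. Of the 95, 75 belong to the 4x conserved list. Whether these rows include filtered calls that the study restored for that list was not tested.

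N17 CUTs were between 115 and 6547 nt long, with a middle 50% of 317 to 771 nt. By quartiles of length, from shortest to longest, the median ratio was 3.22, 3.67, 3.85 and 3.41. Coverage in *rrp6*Δ increased along the same order, at 5.14, 6.35, 7.07 and 8.39, and coverage in WT was 0.634, 0.640, 0.661 and 1.14. A ratio of at least 8 was found for 6.74% of the shortest quartile, 14.5% and 16.5% of the middle quartiles and 11.4% of the longest. With chrXII rows left out, these medians were 3.22, 3.68, 3.84 and 3.60. The difference in median log2 ratio between the longest and the shortest quartile was 0.08 and took the opposite sign under 3 of the alternatives tried. No order of these 2 quartiles can be read. Both middle quartiles were higher than both outer ones with and without chrXII, although 3.68 and 3.60 were close. The middle quartiles were not compared under the other alternatives, so their order may also depend on the pseudocount or the coverage filter.

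The longest CUT was CUT9225 on the minus strand of XVI (510 to 7056, 6547 nt), with 305 in *rrp6*Δ and 22.2 in WT, a ratio of 13.2. It runs to within 60 bp of the lowest coordinate listed for that chromosome. CUT9257 (6514 nt) and CUT9254 (3971 nt) are the chrXII-labelled CUTs of high WT coverage already described. CUT9373 on V (346568 to 349786, 3219 nt) had 7.02 in *rrp6*Δ and 1.43 in WT, a ratio of 3.31, and is in the 4x conserved list. CUT9047 (3201 nt) lies on the plus strand of XVI opposite CUT9225.

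The 5 shortest CUTs measured 115 to 124 nt. CUT9178 on XVI (22652 to 22766), the shortest, had 148 in *rrp6*Δ and 6.55 in WT, a ratio of 19.8. CUT8926 on XVI had a ratio of 9.79 and CUT8136 on V one of 5.30, while CUT6890 on IV and CUT6838 on XVI had 2.93 and 2.84. The last 2 ratios were below the N17 median of 3.52 and above its lower quartile of 2.57.

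Near the lowest coordinates listed on chromosome XVI, CUT9225 was overlapped on the plus strand by CUT9047 (3874 to 7074), over 3183 bp, by CUT8747 (450 to 1790), over 1281 bp, and by CUT7052 (2650 to 3054), which lies wholly within it. CUT9047 had 44.7 in *rrp6*Δ and 1.79 in WT, a ratio of 16.4. CUT8747 had 16.9 in *rrp6*Δ and 0.570 in WT, a ratio of 11.4. CUT7052 had 2.76 in *rrp6*Δ and 0.168 in WT, a ratio of 3.22, below the N17 median, while the ratios of the other 3 CUTs were above 8.90, the 90th percentile of the N17 CUTs. CUT8747 and CUT7052 were chosen after their values were seen.

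CUTs near the listed ends of the chromosomes did not as a whole have high ratios. For this comparison the CUTs labelled chrXII were left out and an end was the lowest or highest coordinate listed for a label. The lowest start listed on III was 25786, so a listed end may lie well inside a chromosome. The 214 CUTs within 30 kb of an end had a median ratio of 3.18, against 3.61 for the 1913 CUTs farther in, a difference of -0.18 on the log2 scale. Coverage was 6.12 in *rrp6*Δ and 0.769 in WT within 30 kb, and 6.17 in *rrp6*Δ and 0.670 in WT farther in. The lowest median, 2.92, was that of the 54 CUTs between 10 and 20 kb, where 1 CUT reached a ratio of 8 (1.85%), and the highest, 3.90, was that of the CUTs between 50 and 100 kb. The median ratio of the 62 CUTs between 20 and 30 kb was 3.53, close to that of the interior. The direction was the same with limits of 20 and 50 kb, but with a pseudocount of 5 the difference shrank to -0.03.

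CUTs of the N17 annotation often lay opposite each other. On the 14 labels other than chrXII, 345 of 2127 CUTs (16.2%) overlapped a CUT on the other strand, with a median overlap of 259 bp, and 166 (7.80%) had a CUT on the other strand starting back to back with them within 300 bp. The overlapping CUTs were longer than those with neither kind of partner, with a median of 600 nt against 449 nt. Their median coverage was 8.23 against 5.54 in *rrp6*Δ and 1.08 against 0.568 in WT. The ratios were close, with a median of 3.62 against 3.58. Longer CUTs have more room to overlap, and the part of length in this difference was not tested.

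A ratio of at least 8 was found for 12.6% of all CUTs on these labels and for 15.4% of those that overlapped a CUT of the other strand. Of 176 overlapping pairs, 9 had both CUTs at a ratio of at least 8 and 38 had 1 CUT there. Of 83 divergent pairs, 1 had both CUTs at 8 or more and 21 had 1. That pair was CUT9265 on the plus strand of XV (783767 to 784369), with 1079 in *rrp6*Δ and 24.9 in WT, and CUT9144 on the minus strand (782564 to 783612), with 92.9 in *rrp6*Δ and 2.29 in WT, whose starts lie 154 bp apart. Among the overlapping pairs, CUT9281 shared 134 bp with CUT9094 on the minus strand of VII (589989 to 590984), which had 59.5 in *rrp6*Δ and 0.941 in WT, a ratio of 31.2. CUT9072 and CUT8766 on VII (716249 to 716913 and 716285 to 716850) covered nearly the same bases on opposite strands, with ratios of 20.3 and 17.4, and both are in the 4x conserved list. The CUTs named as partners in this paragraph, apart from CUT9281, were chosen after their values were seen.

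The CUTs labelled chrXII stood apart from the other 14 labels. No N17 row is labelled chrXIII, and chrXII holds 534 CUTs (20.1%), or 53.0 per 100 kb of listed span, against 18.4 to 24.4 on the other labels. On chrXII 39 CUTs overlapped the next CUT of the same strand, and on the other labels none did, although neighbouring calls within 450 bp were merged by the study. Overlap with a CUT of the opposite strand was likewise more frequent there (43.4% against 16.2%). For this reason the labelled positions of chrXII rows are not read as positions on chromosome XII.

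The 4x conserved list gives a partial placement. Each conserved N17 CUT is paired by row with a JAY291 CUT, whose contig the study assigned to a chromosome. On the other 14 labels, 711 of 711 pairs were on the same chromosome. The 144 pairs of the chrXII label divided into 83 on XII and 61 on XIII. The CUTs paired with XII had a median ratio of 4.60, with coverage of 8.04 in *rrp6*Δ and 0.641 in WT, and those paired with XIII had a median ratio of 4.94, with 7.83 in *rrp6*Δ and 0.398 in WT. Conserved CUTs of the other labels had a median ratio of 4.41, with 6.96 in *rrp6*Δ and 0.510 in WT. The remaining 390 chrXII rows cannot be placed this way. Their median ratio was 2.89, with 10.8 in *rrp6*Δ and 2.26 in WT, against 3.23 for nonconserved CUTs of the other labels, with 5.74 in *rrp6*Δ and 0.790 in WT.

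The chrXII label therefore carried a large part of the CUTs with high WT coverage. Of the 151 N17 CUTs with a WT coverage above 20, 69 were labelled chrXII (45.7%), against 20.1% of all N17 CUTs. The median WT coverage was 1.31 on chrXII, while on the other labels it lay between 0.431 (VI) and 0.810 (XVI). A ratio under 2 was found for 83 CUTs there (15.5%), against 6.25% (I) to 14.7% (XV) on the others. The median length was 581.5 nt on chrXII and at most 501 nt elsewhere. The median ratio, at 3.29, was within the range of the other labels, 3.18 (IX) to 3.73 (X), and so was the share of CUTs with a ratio of at least 8, at 11.2% against 4.30% (IX) to 16.4% (XV).

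Along the coordinates listed under the chrXII label the WT coverage was uneven. The label pools CUTs of XII and XIII, and whether each window holds both was not tested. In windows of 50 kb the median WT coverage was highest between 900001 and 950000, at 6.29 over 20 CUTs with a median ratio of 2.06, and next highest between 850001 and 900000, at 5.40 over 24 CUTs with a median ratio of 2.16. The highest median ratio, 6.07 over 28 CUTs, was between 450001 and 500000. Among the 193 windows of the other labels that held at least 5 CUTs, 1 had a median WT coverage above 3, against 3 of the 21 chrXII windows. The S288c and Sigma1278b annotations also hold no row labelled chrXIII, and there 331 (16.1%) and 372 (15.5%) of CUTs carried the label, with a ratio under 2 in 4 and 0 of them, against 83 in N17. The median WT coverage of chrXII and of the other labels was 0.740 and 0.731 in S288c and 0.683 and 0.642 in Sigma1278b, so a gap of the size found in N17 was not measured in those annotations.

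**Figure D5:**
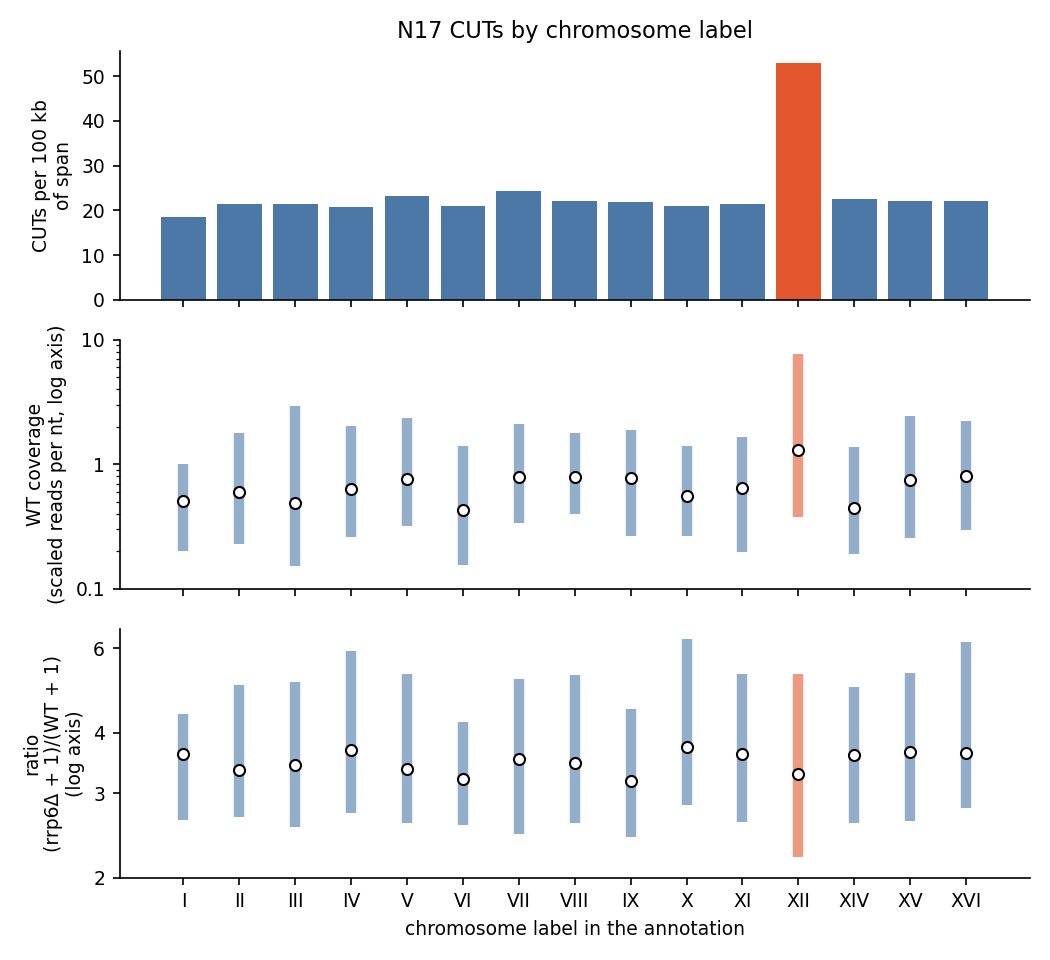
N17 CUTs by chromosome label (horizontal, no CUT being labelled XIII): CUTs per 100 kb of listed span, WT coverage in scaled reads per nucleotide (log axis) and ratio of *rrp6*Δ to WT coverage (log axis), with circles for medians and bars for the middle 50%; chrXII is in orange. The chrXII label stands out in density, at 53.0 per 100 kb, and in WT coverage, with a median of 1.31, but not in ratio, at 3.29.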

How the data were processed

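The authors removed reads from the rDNA repeat and mapped the rest uniquely to the N17 assembly with Bowtie 0.12.7, allowing 2 mismatches. They computed coverage with bedtools 2.16.2, corrected it for first-nucleotide bias and mappability, averaged 2 libraries per genotype and called CUTs, which were filtered, merged within 450 bp and kept from 100 nt. The labels name the sacCer3 build for all samples. The deposited coverage (signal per nucleotide) of *rrp6*Δ and WT was used as listed. A further deposited column with the authors' own fold change was not used.

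Lengths are stop minus start, as starts count from 0, and starts are printed from 1. Ratios used a pseudocount of 1. Medians, shares, overlaps and distances were computed with Python 3.11.15, pandas 2.3.3 and SciPy 1.17.1, and the steps were tested on simulated data. CUTs were named by rule (10 largest and 5 smallest ratios, 10 highest *rrp6*Δ and 5 highest WT coverages, 5 longest, 5 shortest, 5 highest listed at 0 in WT, and the largest ratio per label), and others are marked. The CUTs and classes were chosen with earlier results of these data known. Pseudocounts, length and coverage filters, row order and the chrXII rows were varied. The N17 genome sequence was not used here.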

Additional observations from a re-analysis of the deposited data

How the results depend on the processing

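With 1 averaged value per genotype, no replicate could be left out. No paired analysis was possible because the annotation holds only averages over the 2 libraries of a genotype. Apart from the shares at a ratio of 32, of 57 alternative values for 9 results, 37 stayed within the 95% order-statistic interval of the medians (counts: within 1.5 times), 15 moved beyond it and 5 took the opposite sign. That interval is taken over CUTs, which are not replicates, so it holds no variation between libraries. Staying within it is not a measure of reproducibility. The median ratio of 3.52 was 7.55 with a pseudocount of 0.1, 1.82 with 5, 4.17 without the lowest 25% by *rrp6*Δ coverage and 4.40 as a ratio of length-weighted means. With a pseudocount of 5, 1063 CUTs had a ratio of at least 2 and 86 of at least 8, and with 0.1, 1275 had at least 8. On the log2 scale, a pseudocount of 0.1 gave 0.0054 for plus less minus strand, -0.29 for the longest less the shortest quartile, -0.34 for ends less interior and 0.21 for N17 less S288c. A pseudocount of 5 gave 0.18 for length, -0.025 for ends and -0.19 for N17 less JAY291. Without that lowest 25%, length gave -0.14, S288c 0.17, Sigma1278b 0.0040 and JAY291 -0.23. Length gave 0.17 without chrXII rows and -0.012 for CUTs of 1000 nt or longer less those under 300 nt. The cause was not tested in any case. Coverage without depth limits every value near 0 in WT.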

Other observations

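The 4x conserved list also pairs N17 CUTs by row with Sigma1278b and JAY291 CUTs. On the 14 labels other than chrXII all 711 pairs with Sigma1278b carried the same chromosome label, and 855 of 855 pairs were on the same strand. There were 35 conserved N17 CUTs with a ratio of at least 16, and their median ratio was 19.5 in N17, against 8.85 for their Sigma1278b and 9.36 for their JAY291 partners. They were chosen for a high ratio in N17, so a lower ratio in the partners is built into the choice. A ratio of at least 16 was found for 4 of the Sigma1278b and 5 of the JAY291 partners, and both partners reached 8 for 17 of the 35. Over all CUTs, a ratio of at least 16 was found for 1.30% in Sigma1278b and 2.34% in JAY291. At least 8 was found for 8.57% in Sigma1278b and 13.1% in JAY291.

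Some of these CUTs, named here after their values were seen, were high in N17, Sigma1278b and JAY291. CUT9211 on the minus strand of X (165063 to 165471) had 238 in *rrp6*Δ and 9.16 in WT in N17, a ratio of 23.5, against ratios of 26.4 in Sigma1278b and 29.7 in JAY291. CUT9075 on the minus strand of VII (58132 to 58508) had ratios of 20.3 in N17, 19.9 in Sigma1278b and 16.4 in JAY291. For others the N17 ratio was well above those of both partners. CUT8843 on the plus strand of IV (1137407 to 1137879) had 20.6 in *rrp6*Δ and 0.153 in WT in N17, a ratio of 18.8, against 3.23 in Sigma1278b, while its JAY291 partner was listed at 0 in WT. CUT9274, the most abundant conserved CUT in N17, was called over 999 nt there, against 227 nt in Sigma1278b and 225 nt in JAY291, and its ratio was 44.2 in N17, against 11.9 in Sigma1278b and 13.8 in JAY291.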
